A study of Homo sapiens with 2 samples.

Results

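The nuclear pore complex and the receptors that carry cargo through it are described here through the splicing of their exons. The members are skipped-exon events of genes whose symbol starts with NUP, IPO, XPO, KPNA, KPNB or TNPO followed by a digit, and of RANBP2, TPR, NXF1 and CSE1L. This rule took 1177 of 113456 events, which cover 594 of 67154 exons and 49 of 11965 gene symbols. Polyadenylated RNA was sequenced from HEK293T cells, a human cell line of embryonic kidney origin. Control cells were untreated, and the other cells were given 300 µg/mL of amiloride, a sodium channel blocker used as a diuretic, for 6 h. Each condition has 1 library, so the error between replicates cannot be estimated and each value compares 2 libraries, not 2 conditions.

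The pore is a ring of scaffold proteins in the nuclear envelope, lined by disordered repeats that slow the passage of large molecules. Importins and exportins bind a signal in their cargo, cross the channel by touching these repeats, and load or release cargo according to the nucleotide state of the small GTPase Ran. Most mRNA leaves by a separate receptor, NXF1, that does not use Ran.

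All differences and FDR values come from the authors' deposited rMATS tables, which weigh reads that include an exon against reads that join its flanking exons. The inclusion level difference runs from -1 to 1, and a positive value means more inclusion in the library numbered first than in the other. Which of them received amiloride is not stated, so signs cannot be assigned to the drug. An exon was called if at least 1 event passed an FDR of 0.1, a threshold stated in the methods for knockdowns of RNA-binding proteins. Where an exon had several events, its value is that of the event with the lowest FDR, and among events tied there, such as those with an FDR listed as 0, that of the largest in size. The cell line could not be checked by marker genes, because the columns used hold no expression level.

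Called exons with large differences, 1 in each of 7 genes, are shown by sequence, since they span the channel and the receptors described in the following paragraphs. Positions are on GRCh37. KPNB1, the importin beta that carries most classical cargo, has exon 8 of 22 at chr17:45741525-45741635 on the plus strand. XPO1, the exportin for leucine-rich export signals, has exon 19 of 25 at chr2:61715300-61715406 on the minus strand. Exon 4 of 14 of KPNA5, an importin alpha, lies at chr6:117013456-117013555 on the plus strand. The KPNA1 exon at chr3:122176573-122176695 on the minus strand is outside the canonical transcript, and 2 of the 4 annotated transcripts that hold it are classed as targets of nonsense-mediated decay. NXF1 exon 9 of 21 is at chr11:62568566-62568673, TNPO2 exon 12 of 26 at chr19:12822110-12822275 and NUP54 exon 7 of 12 at chr4:77052383-77052437, all on the minus strand. Transcripts of the nonsense-mediated decay class also held the exons of XPO1 (9 of 41), KPNA5 (2 of 7) and NUP54 (7 of 16). None was listed for those of KPNB1, NXF1 and TNPO2. Each sequence holds 20 intron bases, the exon and 6 intron bases, and the capitals mark the last 2 intron bases before the exon and the first 2 after it.
KPNB1: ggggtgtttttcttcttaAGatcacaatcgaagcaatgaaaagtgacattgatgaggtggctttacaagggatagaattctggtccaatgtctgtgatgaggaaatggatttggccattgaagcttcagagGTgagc
XPO1: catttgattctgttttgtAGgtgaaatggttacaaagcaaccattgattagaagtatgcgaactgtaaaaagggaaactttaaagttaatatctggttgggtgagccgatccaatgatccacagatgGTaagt
KPNA5: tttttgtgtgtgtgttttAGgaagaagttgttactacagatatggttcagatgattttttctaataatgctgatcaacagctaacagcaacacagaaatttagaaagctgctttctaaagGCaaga
KPNA1: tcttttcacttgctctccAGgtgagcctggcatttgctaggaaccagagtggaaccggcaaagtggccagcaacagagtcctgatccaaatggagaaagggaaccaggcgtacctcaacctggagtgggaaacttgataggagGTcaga
NXF1: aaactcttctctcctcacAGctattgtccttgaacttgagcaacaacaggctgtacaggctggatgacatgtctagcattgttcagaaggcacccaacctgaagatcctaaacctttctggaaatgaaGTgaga
TNPO2: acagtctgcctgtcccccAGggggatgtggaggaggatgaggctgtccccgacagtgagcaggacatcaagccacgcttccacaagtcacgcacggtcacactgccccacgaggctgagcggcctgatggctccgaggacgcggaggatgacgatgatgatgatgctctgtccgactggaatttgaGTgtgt
NUP54: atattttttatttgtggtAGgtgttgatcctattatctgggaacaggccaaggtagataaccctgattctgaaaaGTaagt
The intron bases in capitals were AG and GT in 6 of the 7 exons. The KPNA5 exon is followed by GC, a minor class of 5′SS. In all, 4 of the 594 member exons (0.673%) preceded a GC, in KPNA5, IPO7, XPO1 and NUP35, against 0.95% of all exons in the table. The first 3 of these were called, which is too few for a comparison with the 41.5% of all exons before a GC that were called.

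Among the 594 exons, 208 were called, or 35.0% (31.3 to 38.9 as a 95% Wilson interval, for counting error alone), beside 35.8% of all exons in the table. By event the share was 24.1%, or 284 of 1177, beside 27.5%. Exons of the pore and its receptors were thus called about as often as exons at large, while their events were called less often. They had a mean of 1.98 events per exon, beside 1.69 over all exons, so each had more chances of a call. Of 49 symbols, 45 had a called exon (91.8%), beside 66.8% of all symbols. A median of 13 exons per symbol was listed here and 4 per symbol in the whole table, so these genes had more chances of a call. The symbols without a called exon were KPNA4, NUP37, IPO9-AS1 and NUP50-AS1. KPNA2 and KPNA7 were not analysed here.

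Nearly all called exons were included more in the library numbered first, which is the pattern of the whole table. The difference was positive in 202 of the 594 exons (34.0%, beside 34.2% of all exons) and negative in 6 (1.01%, beside 1.54%). Expressed over the called exons, 97.1% were positive, against 95.7% of all called exons. In 41 of the 45 symbols every called exon was positive. The exceptions were KPNB1, XPO1, NUP54 and NUP155.

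The differences of called exons were smaller than in the table as a whole. Their median size was 0.065 (quartiles 0.036 and 0.134), against 0.116 (quartiles 0.056 and 0.24) over all called exons. Of the 594 exons 70 were both called and at 0.1 or more in size (11.8%), beside 19.9% of all exons. Among exons that were not called, 4.15% of the members and 14.2% in the whole table also had that size. The gap in median size was present in each class of exon length, for example 0.066 against 0.106 for exons of 101 to 150 bases. How many reads lay behind a call was not used, so expression was not tested for a part in this.

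**Figure D1:**
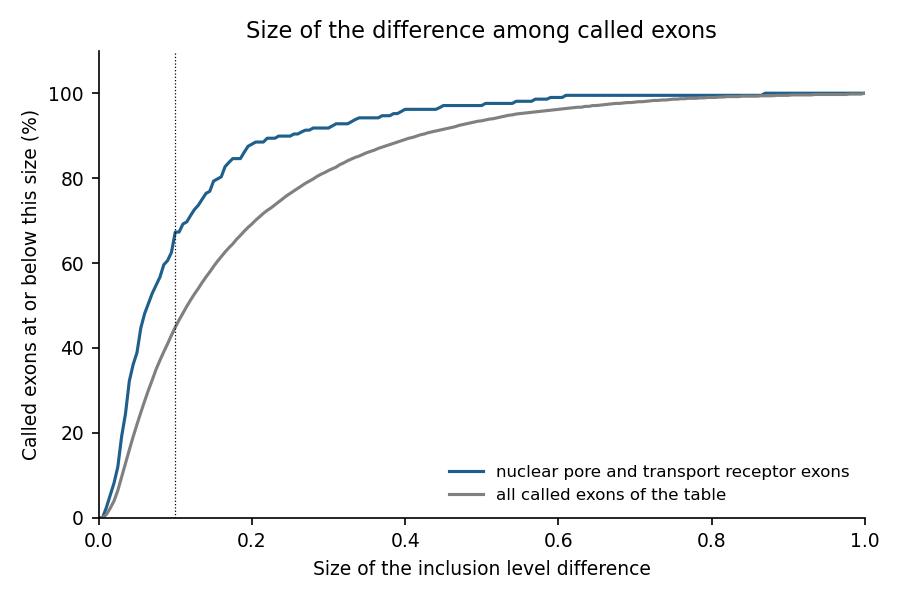
Cumulative share of called exons (percent, vertical axis) by the size of the inclusion level difference (horizontal axis) for the 208 called exons of nuclear pore and transport receptor genes and for the 24008 called exons of the whole table. The dotted line marks a size of 0.1, which 33.7% of the called member exons and 55.6% of all called exons reached.

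By role in the pore or in transport, the share called ran from 23.8% to 47.6%. The basket (20 of 42 exons, 47.6%, Wilson interval 33.4 to 62.3) and the cytoplasmic filaments (19 of 41, 46.3%, 32.1 to 61.3) stood at the upper end. The inner ring (19 of 80, 23.8%, 15.8 to 34.1) and the Y complex (19 of 79, 24.1%, 16.0 to 34.5) stood at the lower end. With exons pooled, the share was thus lower for the scaffold rings than for the structures on the faces of the pore. By gene the ranges overlapped. Scaffold genes ran from 0 of 2 exons called in NUP37 to 7 of 16 in NUP93. Genes of the basket and filaments ran from 1 of 7 in NUP50 to 6 of 10 in NUP88. The pooled difference was not tested. Both scaffold intervals end below the 35.8% of all exons, and all other intervals include that share. Exons of a gene share its read depth and many of their junctions, so they are not independent and the intervals are too narrow for a comparison of roles.

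**Figure D2:**
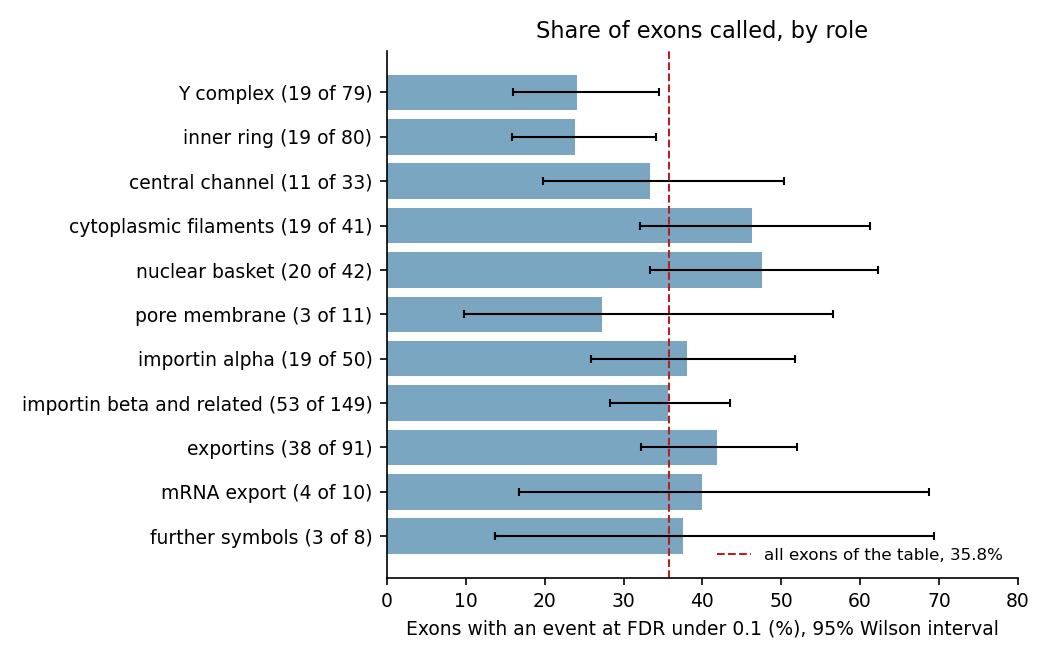
Share of exons called (percent, bars from 0) for each role, with 95% Wilson intervals and the numbers of called and listed exons beside each name. The dashed line is the 35.8% of all exons in the table, and the Y complex and the inner ring lie below it at 24.1% and 23.8%.

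The Y complex is the scaffold of the outer rings, and its called exons had small differences. By the event of lowest FDR all 19 were positive, from 0.021 to 0.099, with a median of 0.046. NUP85 exon 8 (135 bases, chr17:73221198-73221332, FDR 2.5e-10) had 0.099. Its 5′SS reads agtGTacgt, and its motif score, which rises with likeness to annotated sites, exceeded that of 4.2% of the exons in the table. NUP133 exon 10 differed by 0.079 with an FDR listed as 0, NUP43 exon 5 by 0.066 (FDR 1.8e-12) and NUP107 exon 20, of 39 bases, by 0.062 (FDR 4.6e-12). The 5 called exons of NUP160 ranged from 0.023 to 0.034. A called event above 0.1 was listed for NUP85 exon 7, at 0.188 (FDR 9.6e-04) when exons 6 to 8 were removed together. Against that same junction exon 6 was at 0.067 (FDR 3.7e-05) and exon 8 at 0.052 (FDR 1.8e-05). When exons 7 and 8 were removed, exon 7 was at 0.046 (FDR 9.5e-05).

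The inner ring anchors the scaffold to the membrane and holds the channel proteins in place. Its 19 called exons had a median size of 0.108, and 10 of them reached 0.1. NUP155 exon 25 (136 bases, chr5:37307399-37307534) had the highest value, 0.251, with an FDR listed as 0. NUP93, which binds the other scaffold proteins of this ring, had 7 called exons, and exon 20 led them with 0.167. In NUP205 exon 16 the difference was 0.157, again with an FDR listed as 0. NUP35 exon 5 differed by 0.118 (FDR 3.3e-09), and its 3′SS score of 2.12 was higher than that of 2.4% of all exons. In NUP188, a large paralog of NUP205, 3 of 20 exons were called, from 0.065 to 0.113. One called exon of the ring was negative, NUP155 exon 33, at -0.026 (FDR 0.03).

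The channel is filled by proteins rich in phenylalanine and glycine, among them NUP62, NUP54 and NUP98. NUP62 exon 2, a noncoding exon of 122 bases at chr19:50430951-50431072, differed by 0.149, and a form of it with 155 bases that starts further upstream differed by 0.127. These exons share their 5′SS, gcgGTacac, and 1 of the 2 is also listed under IL4I1, a gene that overlaps NUP62, so its reads cannot be assigned to either gene. NUP98 had 2 of 19 exons called, and exon 24 led with 0.098 (FDR 3.3e-08).

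NUP54 held 3 of the 6 negative exons. Exons 7, 8, 9 and 10 were positive, with 0.339, 0.171, 0.149 and 0.235, and FDR values listed as 0 except for exon 9 (6.4e-12). Other called events gave 0.256 and 0.214 for exon 7, again with an FDR listed as 0, so its 0.339 is the largest of 3 tied events. They gave 0.334 (FDR 1.5e-04) and 0.729 (FDR 0.033) for exon 8, 0.067 (FDR 3.9e-04) and 0.055 (FDR 9.1e-05) for exon 9 and 0.03 (FDR 0.0071) for exon 10. Exons 5 and 3, towards the 5′ end, were negative with -0.117 (FDR 0.018) and -0.07 (FDR 0.0012). A 162-base exon near the 5′ end that the canonical transcript lacks was also negative, at -0.014 (FDR 0.06). The event behind exon 5 removes exons 3 to 8, among them the positive exons 7 and 8. Exons 2, 4 and 6 were not called, with 0.024, 0.02 and 0.01. The positive exons shared skipping junctions: 1 junction from exon 6 to exon 9, which removes exons 7 and 8 or 149 bases, gave 0.339 for exon 7 and 0.171 for exon 8.

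The cytoplasmic filaments reach into the cytoplasm and take apart export complexes. All 19 called exons were positive. NUP88 had 6 of 10 exons called, and exon 8 (99 bases, chr17:5302872-5302970) led with 0.198 when removed together with exon 9. Its 5′SS, cagGTgagt, scored above 97.5% of all exons. Removed together with exons 7 and 9, the same exon was at 0.48 (FDR 0.01). Against that same junction exon 7 was at 0.057 (FDR 1.1e-06) and exon 9 at 0.069 (FDR 2.4e-07). RANBP2, a large Ran-binding protein with SUMO ligase activity, had 3 of 12 exons called, with 0.15 at exon 8 (FDR 5.5e-14). Reads of RANBP2 can be shared with its near-identical RGPD copies, so its values are uncertain. NUP214 had 10 of 19 exons called. Exon 24 had the lowest FDR, listed as 0, with 0.13, while exons 27 and 28 had larger differences of 0.305 (FDR 7.2e-11) and 0.328 (FDR 7.3e-12). These neighbours were chosen after their values were seen, and both values belong to the same junction from exon 26 to exon 29, which removes 147 bases and keeps the reading frame. Skipped alone, exon 27 differed by 0.035 (FDR 0.019) and exon 28 by 0.108 (FDR 4.8e-10). In the event that removes exons 25 to 28, exon 28 was at 0.059 (FDR 0.036). The 1800-base exon 29 of NUP214 was not called, with -0.009.

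The basket extends into the nucleus and is built on TPR, a long coiled-coil protein, with NUP153 and NUP50 bound to it. TPR had 9 of 18 exons called. Exon 35 (62 bases, chr1:186304200-186304261) had a difference of 0.277 with an FDR listed as 0, and the other 8 ranged from 0.022 to 0.098. Each of these calls came from an event that removes a single exon. NUP50 had 1 called exon of 7, with 0.018 (FDR 0.013).

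NUP153 had larger differences than the other basket genes. Of the exons of its canonical transcript, exon 10 (53 bases, chr6:17662249-17662301) differed by 0.606 and exon 11 by 0.391, both with an FDR listed as 0. The values rest on the same skipping junction, from exon 9 to exon 12, so they are not separate observations of skipping. That junction removes exons 10 and 11 of the canonical transcript, 180 bases or a whole number of codons. When exon 10 was skipped alone, between exons 9 and 11, the difference was 0.034 (FDR 0.0016).

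The called canonical exons of NUP153 were neighbours. Of the 16 exons listed from its canonical transcript the 9 called ones were exons 6 to 14, all positive. Exons 15 to 20, which include the exons of 618 and 885 bases, were not called, with differences from -0.007 to 0.023, and neither was exon 4, at 0.003. Exon 9 differed by 0.445 (FDR 8.6e-06) in an event that joins exon 5 to exon 12, which removes 6 exons, and by 0.047 (FDR 0.0026) in an event that removes 3. The value given for an exon therefore depended on which junction was set against it.

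**Figure D3:**
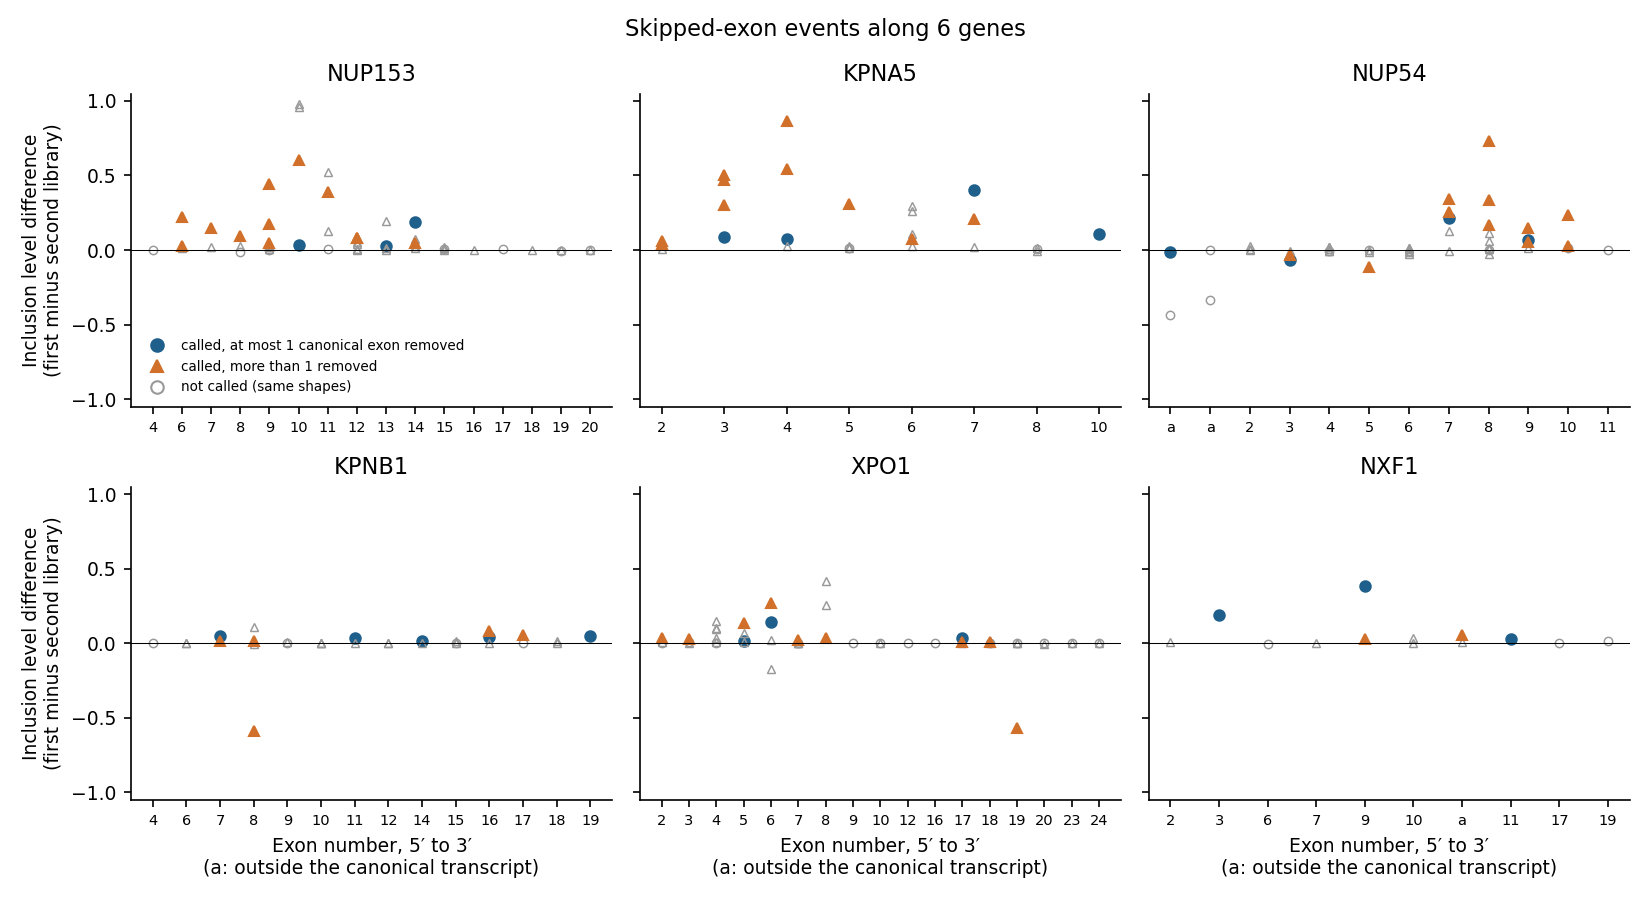
Inclusion level difference (vertical axis, first minus second numbered library) of skipped-exon events against exons of 6 genes in 5′ to 3′ order. Filled marks are called events and open marks are not called, triangles are events whose junction removes more than 1 exon of the canonical transcript, and the letter a stands for an exon outside that transcript. NUP153 exons 6 to 14 form a run of called positive values, NUP54 has called values on both sides of 0, and the called values of KPNB1 and XPO1 at -0.589 and -0.566 are single triangles.

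NUP210, a glycoprotein that spans the membrane of the pore, had 3 of 11 exons called, from 0.031 to 0.042. Exon 6 had the lowest FDR among them, 0.012, with 0.031.

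Importin alpha proteins are adaptors that bind the classical import signal and hand it to KPNB1. All 19 called exons of this family were positive, with a median size of 0.098. KPNA5 had 7 of 8 listed exons called, the highest share of the family, and 14 of 27 events. Exon 4, which precedes the GC, differed by 0.543 and exon 3 by 0.505, both with an FDR listed as 0 for the junction from exon 2 to exon 5. That junction removes 202 bases, which is not a whole number of codons. For exon 4 a called event that removes exons 3 to 5 gave 0.863 (FDR 2.5e-06). The values were smaller when either exon was skipped alone, 0.075 (FDR 0.0079) for exon 4 and 0.087 (FDR 0.043) for exon 3. Skipped alone, exon 7 differed by 0.4 (FDR listed as 0) and exon 10 by 0.107 (FDR 1.6e-05). Exon 5 differed by 0.308 (FDR 2.1e-08) together with exons 3 and 4. Exon 8 was the listed exon of KPNA5 without a call, at 0.016.

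The other importin alpha genes had fewer large values. KPNA3 exon 5 (53 bases) differed by 0.261 (FDR 4.2e-12), and KPNA6 exon 13 (179 bases) by 0.203 with an FDR listed as 0. In KPNA1, exon 10 had the lowest FDR (4.5e-15), with 0.148. The KPNA1 exon shown above differed by 0.447 (FDR 8.8e-05), while exon 5, set against the same junction, differed by 0.035 (FDR 8.3e-05). KPNA4 was listed with 11 exons and none was called.

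KPNB1 and its relatives, the importins and transportins that bind cargo directly, had 53 of 149 exons called (35.6%), close to the share over all exons. Among the exons of lowest FDR per gene, exon 15 of TNPO1 (87 bases, chr5:72187637-72187723), which imports hnRNP proteins, was first with 0.192. IPO13 exon 15, of 53 bases, followed with 0.188 and IPO7 exon 6 with 0.138, all 3 with an FDR listed as 0. The TNPO1 value is for the junction that removes exons 15 and 16, and its exon 15 skipped alone differed by 0.041 (FDR 2.3e-11). IPO11 exon 24 differed by 0.122 (FDR 1.7e-13). TNPO2, the close paralog of TNPO1, had 8 of 18 exons called and the largest positive value of the family, 0.37 at exon 12 (FDR 1.2e-10). Its exon 12 ends in tgaGTgtgt, a 5′SS that scored above 2.2% of all exons, and 3 of its 6 events were called, with 0.37, 0.196 and 0.115. TNPO3, which imports SR splicing proteins, had 3 of 14 exons called, from 0.045 to 0.059. IPO8 had 1 of 10 called, with 0.027, and the 5 called exons of IPO5 did not exceed 0.063.

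KPNB1 combined small positive values with 1 large negative value. Of its 7 called exons 6 were positive, from 0.017 to 0.084. Exon 8 was at -0.589 (FDR 7.9e-05) in the event that joins exon 6 to exon 10 and removes 3 exons. The same exon was at 0.017 (FDR 0.012) in the event that joins exon 6 to exon 9, and its remaining 2 events were not called. Exon 7, set against the junction from exon 6 to exon 10 as well, was at 0.015 (FDR 0.015).

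Exportins had 38 of 91 exons called (41.8%), with the small median size of 0.0405. XPO1 exon 6 (45 bases, chr2:61729131-61729175) differed by 0.269 and exon 5 by 0.139, both for the junction from exon 4 to exon 7. This junction removes 107 bases and shifts the reading frame. Exon 6 skipped alone differed by 0.144, and all 3 values had an FDR listed as 0. Exon 5 skipped alone differed by 0.018 (FDR 0.062). XPO1 exon 19 was negative, at -0.566 (FDR 0.0013), in an event that removes exons 17 to 20. Its other 3 events were not called, at 0.001, 0.004 and, for exon 19 skipped alone, 0.0.

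CSE1L, which returns importin alpha to the cytoplasm, had 5 of 14 exons called and led at exon 16 (104 bases) with 0.195. That value is for the junction that removes exons 16 and 17, and exon 16 skipped alone differed by 0.015 (FDR 0.078). The XPO4 exon of lowest FDR, exon 14, differed by 0.164 (FDR 2.4e-11). XPO5, the exporter of microRNA precursors, led at exon 12 with 0.117. XPO6, which exports actin with profilin, had the most events of any member gene, 88, and the most called exons, 12 of 21, from 0.01 to 0.164 by the event of lowest FDR. Its exon 15 was at 0.055 by that event and at 0.242 in another called event. XPO7 had 4 of 13 exons called and none above 0.065.

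NXF1, the main receptor for mRNA, had 4 of 10 exons called. Exon 9 (108 bases) differed by 0.382 with an FDR listed as 0 when skipped alone and by 0.026 (FDR 0.044) in the event that removes exons 9 to 11. Exon 3 (154 bases) differed by 0.193, also with an FDR listed as 0. Intron 10 of NXF1 is known to be kept in a fraction of its mRNA, which is exported through an RNA element in that intron. The deposited tables listed it in 3 event types. As a retained intron (1801 bases, chr11:62566048-62567848) it differed by 0.055 with an FDR listed as 0. As the long form of exon 10 with an alternative 5′SS it differed by 0.174 (FDR 9.5e-13), where the short form joins exon 10 to exon 12. As a skipped exon of 1948 bases that spans exons 10 and 11 it differed by 0.058 (FDR 0.0067). All 3 longer forms were thus higher in the library numbered first, but they cover the same intron and are not separate observations. They were also set against different shorter forms. The skipped exon was set against the junction that removes exons 9 to 11. Exon 11 skipped alone, set against the junction from exon 10 to exon 12, differed by 0.032 (FDR 1.8e-06).

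Another 5 symbols matched the rule without naming a pore protein or receptor of their own. NUP62CL, a gene on the X chromosome related to NUP62, had 1 of 4 exons called, with 0.331 (FDR 6.9e-14) at exon 5. IPO5P1 is a pseudogene whose reads can be shared with IPO5, and it had a value of 0.171 (FDR 0.023). IPO11-LRRC70 is a read-through of IPO11 with a value of 0.132. IPO9-AS1 and NUP50-AS1 are named as antisense to member genes. The IPO9-AS1 exon, at chr1:201786355-201786429, lies outside the listed exons of IPO9. Whether reads were counted by strand is not given in the sources used here.

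**Figure D4:**
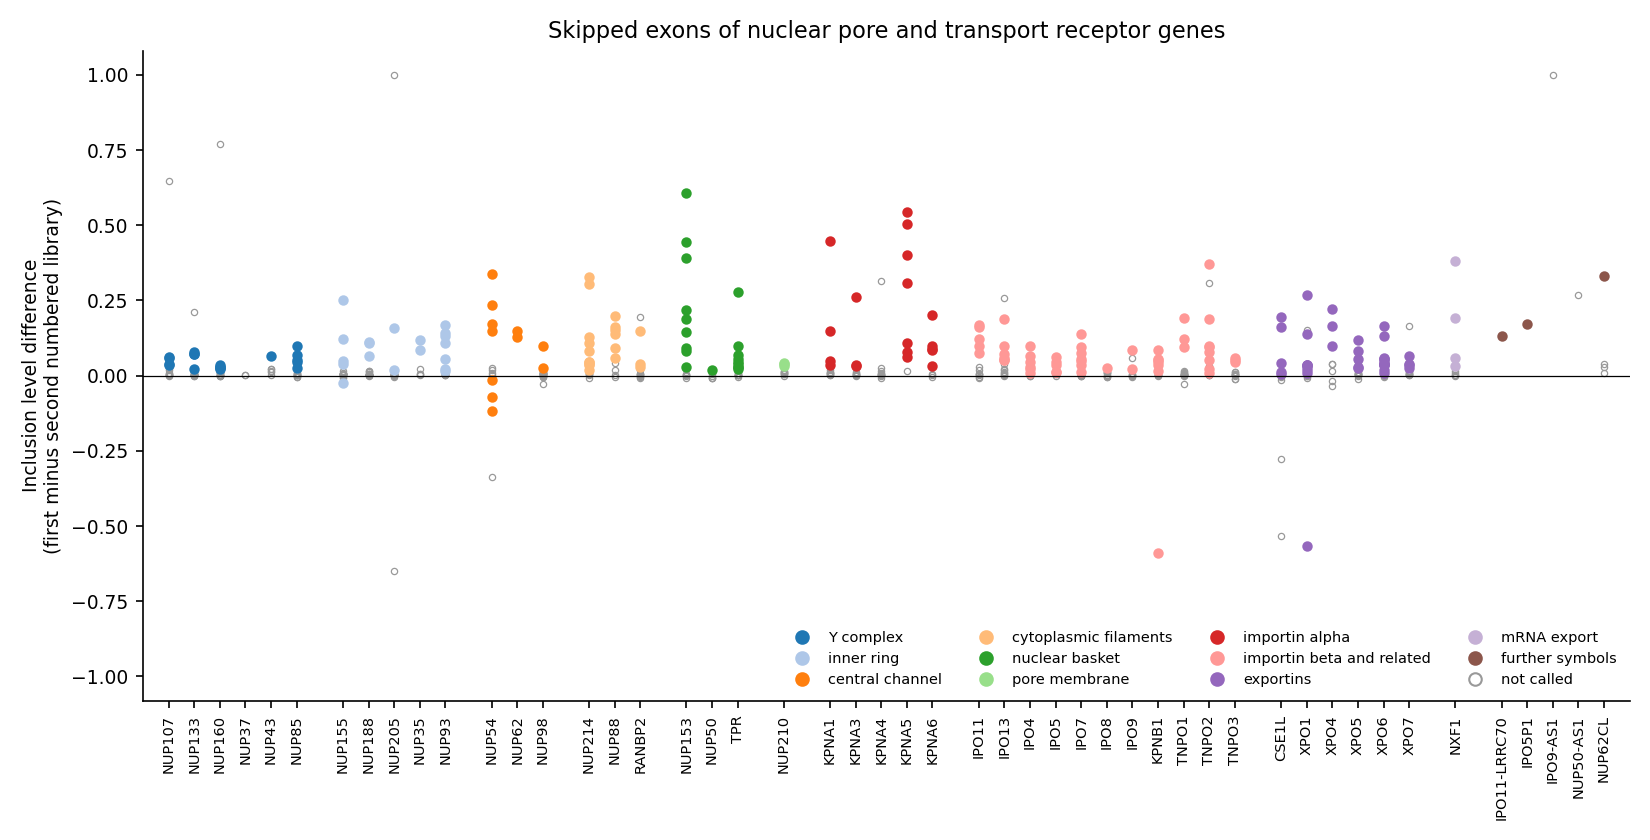
Inclusion level difference (vertical axis, first minus second numbered library) of member exons, by gene symbol and role. Filled points are called exons, coloured by role, and open grey points are exons not called. Called points lie above 0 apart from 6, in NUP155, NUP54, KPNB1 and XPO1, and NUP153 and KPNA5 reach the highest called values of the basket and of importin alpha.

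Events that remove a single canonical exon and events that remove several were compared. Of 464 single-exon events 128 were called (27.6%), with a median size of 0.0495. Of 687 events that remove 2 or more exons 147 were called (21.4%), with a median size of 0.071. The whole table had the same order, with 30.5% and 0.093 for single exons and 24.7% and 0.121 for several. The remaining 26 events, of exons outside the canonical transcript, had 9 calls (34.6%) and a median size of 0.127, against 28.8% and 0.136 in the whole table.

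Calls were linked through shared junctions. The 284 called events used 223 distinct skipping junctions, of which 54 served 2 or more called events and 91 removed 2 or more canonical exons. Conversely, 58 exons had 2 or more called events, and within these the values differed by a median of 0.103 and by up to 0.788, in KPNA5 exon 4. Called events of both signs were found in 2 exons, KPNB1 exon 8 and NUP93 exon 18, which was at 0.054 (FDR 5.2e-10) and at -0.214 (FDR 0.077). Of the 208 called exons, 127 also had an event that was not called. An exon with 2 or more events was called in 49.5% of cases and an exon with 1 event in 21.1%, beside 51.4% and 25.3% in the whole table.

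Called and uncalled exons differed in length and splice sites. The median length was 105.5 bases for called and 123 for uncalled member exons, against 102 and 123 over all exons. A whole number of codons was found in 33.7% of called and 43.5% of uncalled exons, against 36.3% and 40.2% over all. The 5′SS motif score, a sum of log2 ratios over 9 bases, averaged 7.56 (SD 2.91) in called and 8.11 (SD 2.45) in uncalled exons. For the 3′SS, scored over 23 bases, the means were 9.18 (SD 3.3) and 9.93 (SD 3.12). Over all exons the corresponding means were 7.6 and 7.86 for the 5′SS and 8.94 and 9.19 for the 3′SS. The order of called and uncalled exons is that of the whole table, and exons are not replicates, so no test was made.

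The share called fell with length above 100 bases. It was 44.0% of 141 exons of 76 to 100 bases, 34.9% of 215 exons of 101 to 150 bases and 23.8% of 147 longer exons. In the whole table the shares of these classes were 42.8%, 34.7% and 24.1%. Of 70 exons of 51 to 75 bases 42.9% were called, beside 46.3% in the whole table. Among exons of up to 50 bases 6 of 21 were called (28.6%, Wilson interval 13.8 to 50.0), and 47.0% in the whole table lies inside that interval.

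**Figure D5:**
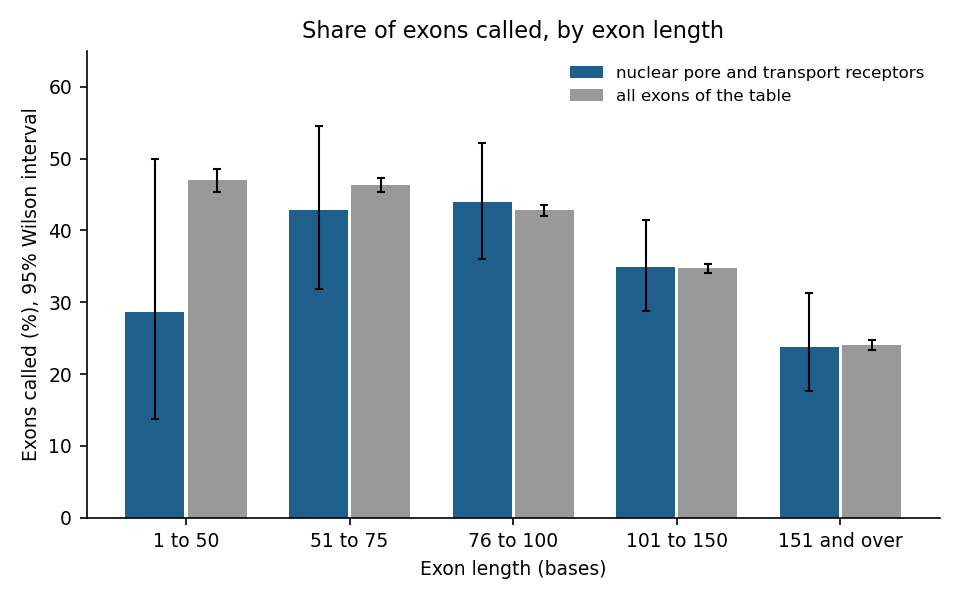
Share of exons called (percent, bars from 0, with 95% Wilson intervals) by exon length in bases, for the member exons and for all exons of the table. Both fall from 44.0% and 42.8% at 76 to 100 bases to 23.8% and 24.1% above 150 bases.

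In the other tables the same genes had 505 events of mutually exclusive exons, of which 222 were called (44.0%), beside 39.3% of that table. The calls lay in 38 genes, with a median size of 0.056 against 0.079 over all called events of that type. The sign there tells only which of the 2 exons was favoured, and 129 were positive and 93 negative. Several events tied at an FDR listed as 0, and the largest of these in size were exons 9 and 10 of NXF1 (0.432), exons 6 and 7 of KPNA5 (-0.419) and exons 7 and 9 of NUP153 (0.351). Of the called events, 171 of the 222 (77.0%) hold a called skipped exon, against 62.9% of those not called.

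Alternative splice sites were listed for few member genes. Of 4 events with an alternative 5′SS 3 were called, beside 28.2% of that table: the NXF1 event given above, NUP98 with 0.097 (FDR 0.0016) and NUP155 with -0.052 (FDR 6.6e-05). Of 2 events with an alternative 3′SS, in IPO4 and TNPO2, 0 were called, beside 23.0%, and their FDR values were 0.4 and 0.44. The retained intron of NXF1 was the sole member event of its type, where 48.2% were called.

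Further genes of the pathway that the symbol rule does not take were counted from a fixed list of 30 symbols, of which 27 were listed. A called exon was found in 22 of them, beside 66.8% of all symbols, but the 27 hold 220 exons where the whole table has a median of 4 per symbol, so they too had more chances of a call. Of the 220 exons 93 were called (42.3%, beside 35.8% of all exons), with a median size of 0.068 against 0.116. Positive calls were 86 and negative calls 7 of the 220 exons. In the whole table they were 22976 and 1032 of 67154 exons (34.2% and 1.54%), so both shares were higher among these genes. NUPL1 and NUPL2 are older symbols of NUP58 and NUP42, which belong to the channel and the cytoplasmic filaments. NUPL2 had 3 of 4 exons called and led with 0.641, and NUPL1 had 5 of 7 and led with 0.342. AHCTF1, which seats the Y complex on chromatin, led with 0.5 and the SUMO protease SENP1 with 0.664, all 4 with an FDR listed as 0. These 4 were named after their values were seen, and a leading exon is the called one of lowest FDR, which need not be the largest. NDC1 led with 0.081 and RANBP3 with 0.068, but their called exons reached 0.828 and 0.609 in size. SEC13 led with a negative value, -0.063, and the smallest lead in size was that of XPOT, 0.037. Of the Ran cycle, RAN led with 0.099, its activating protein RANGAP1 with 0.067 and its exchange factor RCC1 with 0.209.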

How the data were processed

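The authors ran rMATS on 1 control and 1 amiloride library and deposited 5 tables of events. The p-value and FDR of each event were used as deposited by the authors, and no test was added. The submitters' processing notes name STAR 2.5.1 and the build hg19, which is GRCh37; the rMATS version is not given in the sources used here. The comparison columns hold the p-value, the FDR and the inclusion level difference. The deposited FDR matched a Benjamini-Hochberg adjustment of the p-values over all skipped-exon events to within 5.0e-13. Other columns, 30 over the 5 tables, hold reads or inclusion levels per numbered library. Their headers name no condition, so they were not used in any step, and depth per library is unknown. Inclusion was credited with reads on the exon body as well as on junctions.

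Events were grouped by chromosome, strand, start and end into exons. On GRCh37, 99.3% of member exons lay between AG and GT. Positions are 1-based, and exon numbers follow the canonical transcripts of GENCODE release 44 lifted to GRCh37. Motif scores add up, base by base, the log2 ratio of the frequency among annotated sites (300873 5′SS with GT, 300290 3′SS with AG, pseudocount 0.5) to equal frequencies. The score of a GC site is not given. Calling and counting were tested on simulated events.

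For each role up to 4 genes were named, each with its called exon of lowest FDR. The 8 largest exons of at least 0.1 in size, 1 per gene, up to 6 negative exons, and up to 3 called events per other type were added. An exon chosen by this rule is not reported here or drawn, and stays in the counts. Further exons were named after their values were seen. Members and lists were chosen with earlier results of these data known. Alternatives were FDR thresholds of 0.05 and 0.01, a size of at least 0.1, exons with 1 event, exons between AG and GT, and leaving out RANBP2 or XPO6. Software was pysam 0.24.0, pandas 2.3.3, numpy 2.4.6, statsmodels 0.14.6, scipy 1.17.1 and matplotlib 3.10.9 under Python 3.11.15.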

Additional observations from a re-analysis of the deposited data

How the results depend on the processing

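Of 28 recomputed values, 23 stayed within their limits: 1.5 times for counts, the Wilson interval of 93.9% to 98.7% for the share of positive exons, and 0.054 to 0.081 for the median size. A minimum size of 0.1 moved the called exons from 208 to 73 and their median size from 0.065 to 0.171, as its construction implies. Here an exon counted if any called event reached that size. With exons of exactly 1 event, of which 303 are listed, 64 were called, 100% of them positive, with a median size of 0.0525. All 6 negative exons therefore had several events. The number of genes with a called exon stayed within 1.5 times under all alternatives, with 32 as its lowest value. No paired analysis was possible because there is 1 library per condition. Unknown depth limits the calls: an exon with few reads may go uncalled whatever its splicing.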

Other observations

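Large differences were also listed for member events that were not called. Of 893 such events 64 differed by at least 0.1 in size. NUP205 exon 36 and an exon of IPO9-AS1 differed by 1 (FDR 0.51 and 0.5), and NUP153 exon 10 by 0.979 and 0.958 in 2 events (FDR 0.13 and 0.26). NUP160 exon 10 differed by 0.771 (FDR 0.73), NUP93 exon 20 by 0.715 (FDR 0.71), NUP214 exon 27 by 0.705 (FDR 0.37) and NUP107 exon 6 by 0.647 in 2 events (both FDR 0.73). NUP205 exon 30 was at -0.65 (FDR 0.53) and CSE1L exon 14 at -0.532 (FDR 0.39). These events were chosen after their values were seen, and the reads behind them were not used. Among the events not called, 80.9% of the member events and 75.0% of all events had a positive difference.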
